A study of Mus musculus with 7 samples.

Results

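The BCL2 family decides whether a cell keeps its mitochondria intact or starts the caspase cascade. Guardian proteins such as BCL2, BCL-XL and MCL1 hold the pore-forming proteins BAX and BAK in check. The BH3-only proteins BIM, PUMA, NOXA, BID and BAD carry stress signals and oppose the guardians or activate the pore formers directly. In germinal centres, where activated B cells of spleen and lymph nodes divide and mutate their antibody genes, B cells keep BCL2 low, depend on MCL1 and die readily unless they are selected. Whether messenger RNA of this family differed in germinal centre B cells deficient in R-Ras2, a GTPase related to RAS, was read from 7 arrays.

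The 10 genes Bcl2, Bcl2l1, Mcl1, Bcl2l11, Bax, Bak1, Bbc3, Pmaip1, Bid and Bad were looked up by symbol in the platform annotation of the array, and a probe was used where it named a single gene. That gave 9 of the 10 genes, out of 21515 genes so named in all, and the level of Bax was not analysed here. Bcl2 had 2 probes, of which the brighter over the 7 arrays was used, and the other 8 genes had 1 each. The samples were total RNA of splenic B cells sorted as positive for B220, CD95 and GL7, from 3 samples of RRas2-deficient mice and 4 of wild-type (WT) mice, called biological replicates in the labels. All mice had received sheep red blood cells, a T cell-dependent immunogen, intraperitoneally 7 days before. Which part of Rras2 is missing, in which cells, and the strain and age of the mice are not stated in the labels. Values are log2 intensities as the authors deposited them, so a step of 1 is a doubling, and an array has no read depth, so the number of arrays limits the precision. All 9 genes were brighter than 3.48 in the mean, the 25th percentile of all genes, and were tested within 1 limma model over 16136 genes. In such sorted populations, fewer cells of a type and less RNA per cell cannot be told apart.

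Both genotypes held arrays of 2 kinds, and this bears on every gene below. The spread of an array's log2 intensities, as their interquartile range, was 2.69 to 2.91 on a wider set (RRas2-deficient replicates 1 and 3, WT replicates 3 and 4) and 2.37 to 2.49 on a narrower set (RRas2-deficient replicate 2, WT replicates 1 and 2). Within the wider set the WT arrays had the wider spreads, 2.91 and 2.78 against 2.73 and 2.69 in the deficient ones. Correlations between arrays were 0.981 to 0.993 within a set and 0.948 to 0.976 between sets. Of 11 listed markers of germinal centre B cells 8 were tested, and their mean was 9.81 to 10.31 on the wider arrays and 8.77 to 8.94 on the narrower ones. The mean of 6 of 9 markers of naive follicular B cells was 6.90 to 7.45 on the wider arrays and 8.07 to 8.54 on the narrower ones. Means of 13 immediate early genes, a sign of handling or stimulation, were 6.30 to 7.08 and 7.57 to 7.93 on the same sets. Of 11 T cell markers 9 were tested, with means of 3.93 to 4.16 on wider and 4.20 to 4.63 on narrower arrays, not far above the limit for dim genes. Rras2 read 6.68 to 7.12 in the deficient samples and 7.13 to 8.66 in WT. The log2 difference was -0.99 ± 0.39 (SE), with a limma p of 0.0415 and an adjusted p of 1.00. It was -0.59 on the narrower arrays and -1.50 on the wider ones. With the array set as a block in the model it was -1.13 ± 0.20 (SE, limma adjusted p = 0.296). A probe outside the missing part would check nothing.

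No BCL2 family gene was called different between the genotypes. Of the 9 genes 0 had a limma adjusted p under 0.05 and 0 had an unadjusted p under 0.05, whereas 2 of the 16136 genes (0.0124%) passed the adjusted threshold and 132 (0.818%) had an unadjusted p under 0.05. In 0 of the 9 genes did the genotypes part without overlap, as they did in 175 (1.08%) of all genes tested. Of the 9 genes 5 had higher and 4 lower means in deficient cells, with a median log2 difference of 0.01 against 0.00 over all genes, and the differences ran from -0.12 for Mcl1 to 0.20 for Bbc3.

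**Figure D1:**
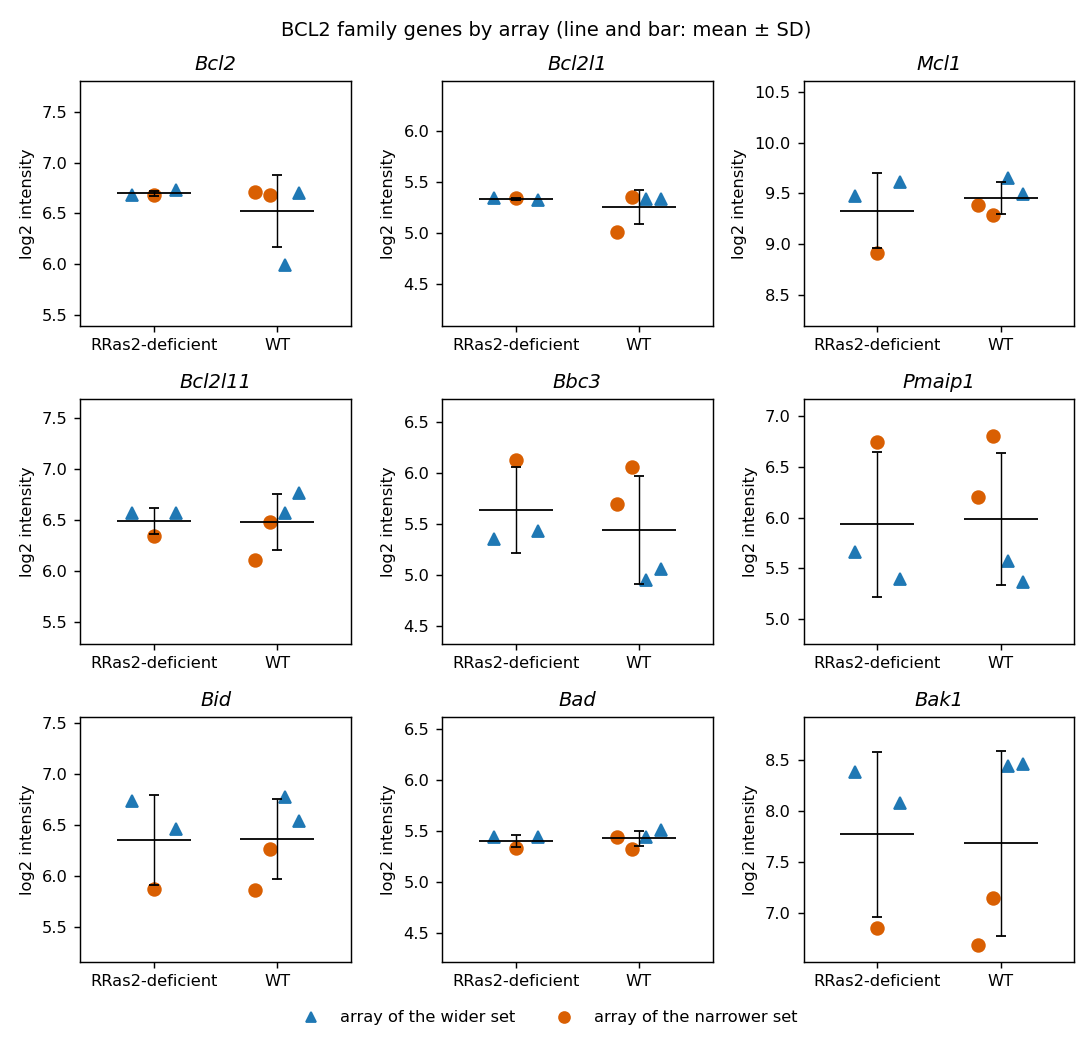
Log2 intensity (vertical axis) of the 9 BCL2 family genes in the 3 RRas2-deficient and 4 WT arrays, 1 point per array, with the mean and SD of each genotype in black; blue triangles are arrays of the wider set and orange circles those of the narrower set. Each vertical axis spans the same width. In each gene the genotypes overlap, while Bak1, Bid, Mcl1, Bcl2l11, Bbc3 and Pmaip1 part by array set.

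Among the guardians, Bcl2, the founding inhibitor of mitochondrial apoptosis, was nearly level over 6 of the 7 arrays as deposited. It read 6.69, 6.69 and 6.73 in RRas2-deficient replicates 1 to 3, and 6.72, 6.69, 5.998 and 6.70 in WT replicates 1 to 4. The low value of WT replicate 3 alone set the genotypes apart. The log2 difference was 0.18 ± 0.19 (SE), with a 95% interval of -0.28 to 0.63 and a limma p of 0.389 (adjusted p = 1.00). Without WT replicate 3 it was -9.40e-05. That array also had the lowest mean of the naive B cell markers, 6.90 against 7.45 to 8.54 on the other 6, and the part of such cells in the Bcl2 level was not tested. The second Bcl2 probe read 3.35 to 3.50 in deficient and 3.45 to 3.81 in WT samples, close to the limit for dim genes, and did not repeat the low value of WT replicate 3 (3.50).

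Bcl2l1 encodes BCL-XL, a guardian induced by survival signals such as CD40 in B cells. It read 5.34, 5.34 and 5.32 in the deficient samples and 5.01, 5.36, 5.34 and 5.34 in WT replicates 1 to 4. Again 1 array stood apart, here WT replicate 1. The log2 difference was 0.07 ± 0.11 (SE), and its 95% interval of -0.18 to 0.33 corresponds to 0.881-fold to 1.26-fold.

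Mcl1 encodes a short-lived guardian on which germinal centre B cells depend. It read 9.48, 8.91 and 9.61 in RRas2-deficient replicates 1 to 3, and 9.39, 9.29, 9.65 and 9.50 in WT replicates 1 to 4. The lowest value came from RRas2-deficient replicate 2, which lay below all WT arrays, and the other deficient arrays lay among them. The log2 difference of -0.12 ± 0.19 (SE) had a 95% interval of -0.56 to 0.32 (limma adjusted p = 1.00), and it was 0.09 without that array.

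Among the BH3-only genes, Bcl2l11 encodes BIM, which removes B cells deprived of survival signals. It read 6.57, 6.35 and 6.57 in deficient samples and 6.10, 6.48, 6.57 and 6.76 in WT samples. All deficient values lay within the WT range. The log2 difference was 0.01 ± 0.16 (SE), with a 95% interval of -0.38 to 0.40.

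Bbc3 encodes PUMA, a p53 and FOXO target that antagonises all guardians. It read 5.36, 6.13 and 5.44 in RRas2-deficient replicates 1 to 3, and 5.70, 6.06, 4.95 and 5.06 in WT replicates 1 to 4. Over all arrays the genotypes overlapped, with a log2 difference of 0.20 ± 0.33 (SE), a 95% interval of -0.58 to 0.98 and a limma p of 0.566 (adjusted p = 1.00). Within each array set, however, the deficient values lay above the WT values, by 0.39 in the wider set and 0.25 in the narrower one. In a model with the array set as a block, its log2 difference was 0.33 ± 0.11 (SE), with a 95% interval of 0.08 to 0.59. Its limma p was 0.0167 and its adjusted p 0.403, so it did not pass. Without RRas2-deficient replicate 3 or WT replicate 3 the unadjusted limma p of Bbc3 was above 0.05 as well, at up to 0.0560. In that model all 6 tested markers of naive B cells were also higher in deficient cells (median 0.28) and all 8 of germinal centre B cells lower (median -0.23), and their part in the Bbc3 difference was not tested. In the same blocked model 1634 genes (10.1%) had an unadjusted p under 0.05, 627 (3.89%) of them with higher values in deficient cells, and 2 genes (0.0124%) had an adjusted p under 0.05. In 2313 genes (14.3%) the genotypes parted without overlap the same way in both sets, in 1081 (6.70%) with the deficient values higher, so 1 such gene of 9 is near that background. With each array's interquartile range as a number in the model and no sets, the difference of Bbc3 was 0.13 (limma adjusted p = 0.948). Bbc3 lies on chromosome 7, as Rras2 does, where it sits 1266 genes away in the order of the 1896 genes of that chromosome on the array.

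Pmaip1 encodes NOXA, which marks MCL1 for destruction. It read 5.66, 6.74 and 5.40 in deficient samples, against 6.20, 6.80, 5.57 and 5.36 in WT samples. Each genotype spanned more than 1 log2 step. The difference of -0.05 ± 0.45 (SE) had a 95% interval of -1.11 to 1.01, so changes of up to 0.463-fold or 2.02-fold lay within it, and the sign turned with the array set as a block (0.13, limma adjusted p = 0.817).

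Bid, which links death receptors to the mitochondria once caspase-8 cleaves it, read 6.73, 5.87 and 6.46 in deficient samples and 5.86, 6.26, 6.78 and 6.54 in WT samples. The log2 difference was -0.01 ± 0.28 (SE), with a 95% interval of -0.67 to 0.65. Bad, whose protein is silenced by survival kinases through phosphorylation, read 5.44, 5.33 and 5.44 in deficient samples and 5.44, 5.32, 5.44 and 5.50 in WT samples. It varied least of the 9, over 0.18 log2 units, and its 95% interval of -0.22 to 0.17 allowed 0.860-fold to 1.13-fold. The same value of Bad to 8 digits stood on 4 arrays, and Bcl2 and Bcl2l11 each repeated a value on 3 arrays. Such repeats occurred in 48.3% of the genes tested, and their bearing on the spread of these 3 genes was not tested.

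Bak1, which encodes the pore-forming protein BAK, had the widest range of the 9 genes, 1.77 log2 units. It read 8.39, 6.86 and 8.08 in RRas2-deficient replicates 1 to 3, and 6.69, 7.14, 8.45 and 8.46 in WT replicates 1 to 4. High and low arrays occurred in both genotypes. The log2 difference was 0.09 ± 0.57 (SE), and its 95% interval of -1.27 to 1.45 was the widest of the 9. The blocked model gave -0.16 ± 0.14 (SE), with a narrower interval of -0.48 to 0.16 (limma adjusted p = 0.736). Within the sets it was -0.22 on the wider arrays and -0.06 on the narrower ones.

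**Figure D2:**
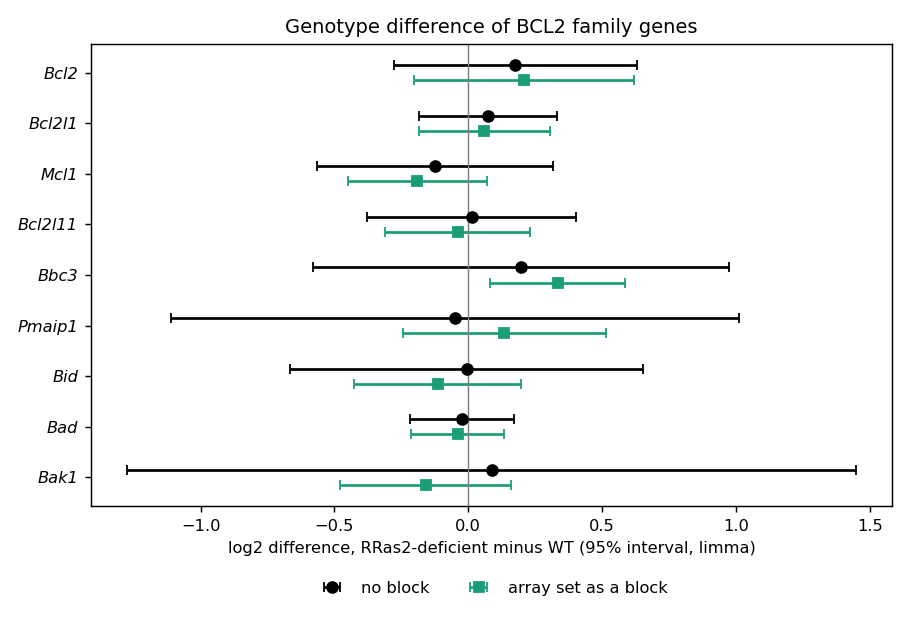
Log2 difference, RRas2-deficient minus WT (horizontal axis), with limma 95% intervals for each gene (vertical axis); black circles are from the model without a block and green squares from the model with the array set as a block. Of the 18 intervals only that of Bbc3 with the block (0.08 to 0.59) leaves out 0, and its adjusted p was 0.403.

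The array sets, not the genotypes, parted most of the family. In 6 of the 9 genes the wider and narrower arrays did not overlap, 4 with higher values on the wider arrays and 2 with lower ones. Over all genes the shares were 40.5% in either direction, 26.9% higher and 13.6% lower on the wider arrays. Since the sets were drawn from the same arrays, these are descriptions without a test.

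Bak1 averaged 8.34 on the wider and 6.90 on the narrower arrays, a difference of 1.45. Bid averaged 6.63 and 5.998 on the same sets, a difference of 0.63. For Mcl1 (0.36) and Bcl2l11 (0.30) the difference was smaller, and it turned to -0.07 and -0.05 after a further quantile normalization of the arrays. As deposited, 1 pore former, 1 guardian and 2 BH3-only genes thus stood higher on the wider arrays, where the markers of germinal centre B cells were also higher.

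Pmaip1 and Bbc3 ran the other way. Pmaip1 read 5.36 to 5.66 on the wider and 6.20 to 6.80 on the narrower arrays, a difference of -1.08. Bbc3 read 4.95 to 5.44 on the wider and 5.70 to 6.13 on the narrower arrays, a difference of -0.76. The narrower arrays, where both stood higher, were also those with the higher naive B cell and immediate early markers. What part cell makeup, handling or array processing had in these differences was not tested. The signs of Bak1, Bid, Pmaip1 and Bbc3 held after a further quantile normalization (0.97, 0.33, -1.33 and -0.89) and with arrays centred on their medians (1.58, 0.76, -0.94 and -0.63). After quantile normalization Bcl2 too parted by set, with a difference of -0.54, against -0.17 and overlapping sets as deposited, and with centred arrays Bcl2l1 did, with a difference of 0.23. Centring moved the median difference of all genes between the sets to 0.11, against -0.02 as deposited.

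**Figure D3:**
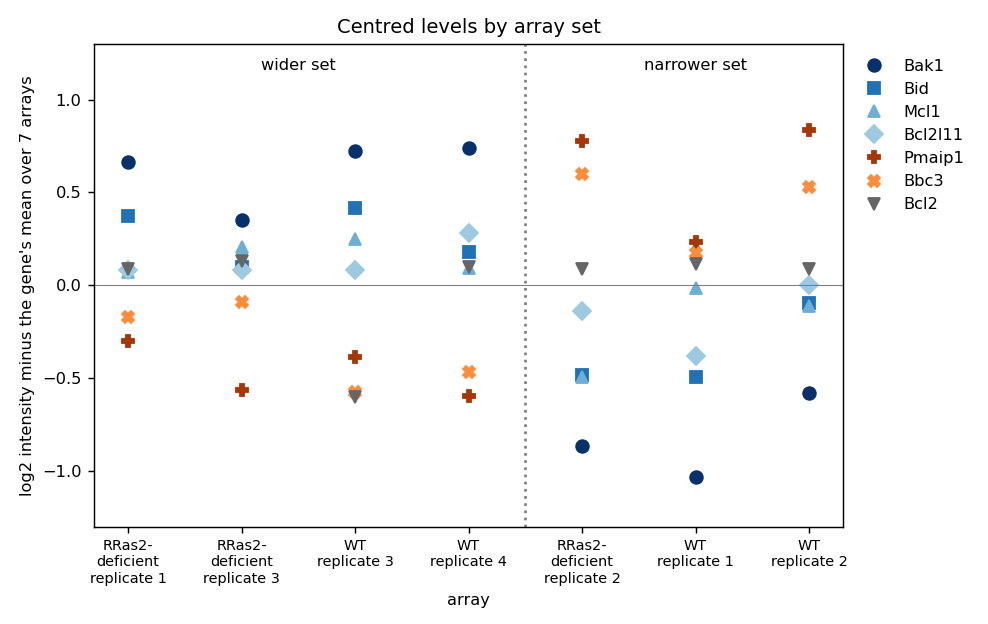
Log2 intensity of 7 BCL2 family genes minus each gene's mean over the 7 arrays (vertical axis), by array (horizontal axis), with the wider set left of the dotted line and the narrower set right of it. Bak1, Bid, Mcl1 and Bcl2l11 stand higher on each wider array than on any narrower one, Pmaip1 and Bbc3 stand lower, and Bcl2 departs only in WT replicate 3.

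The promoters of 3 genes that parted by array set are shown because 2 of them (Bak1 and Bid) were higher and 1 (Bbc3) lower on the wider arrays. Each holds 250 bases before and 50 after a start site in RefSeq (build GRCm38.p6), read 5′ to 3′ on the gene's strand, with motif matches in capitals. For Bbc3, with 3 start sites listed, the window with a forkhead match is given.
Bbc3, chr7:16310011-16310310, plus strand: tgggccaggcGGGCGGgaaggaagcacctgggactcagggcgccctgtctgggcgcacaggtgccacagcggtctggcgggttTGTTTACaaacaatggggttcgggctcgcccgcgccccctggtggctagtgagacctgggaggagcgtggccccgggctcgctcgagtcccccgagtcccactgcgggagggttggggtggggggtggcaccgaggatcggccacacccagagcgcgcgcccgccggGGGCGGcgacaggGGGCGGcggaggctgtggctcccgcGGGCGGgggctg
Bak1, chr17:27028578-27028877, minus strand: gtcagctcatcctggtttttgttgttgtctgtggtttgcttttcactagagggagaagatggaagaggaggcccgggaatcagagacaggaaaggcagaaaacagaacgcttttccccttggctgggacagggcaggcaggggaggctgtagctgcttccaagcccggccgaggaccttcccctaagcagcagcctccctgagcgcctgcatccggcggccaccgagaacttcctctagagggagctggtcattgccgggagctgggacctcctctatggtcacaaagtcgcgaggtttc
Bid, chr6:120916775-120917074, minus strand: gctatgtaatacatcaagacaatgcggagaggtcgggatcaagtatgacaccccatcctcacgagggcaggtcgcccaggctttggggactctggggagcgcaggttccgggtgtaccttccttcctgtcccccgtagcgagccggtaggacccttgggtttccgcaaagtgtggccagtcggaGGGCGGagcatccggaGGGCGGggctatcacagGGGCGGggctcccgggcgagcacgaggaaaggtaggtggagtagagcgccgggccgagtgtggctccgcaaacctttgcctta
On both strands 6 motifs were searched in 15 windows of 9 of the 10 genes, Bax included and Pmaip1 not, and in the 3 printed windows no matches of different motifs overlapped. The forkhead motif TGTTTAC, bound by FOXO proteins, occurred once each in Bbc3, starting at position -167 from the start site, and in Bcl2l11 at -227, and in 3.65% of all 32851 windows. The GC box GGGCGG occurred 4 times in the Bbc3 window and 3 times in that of Bid. It was found in 10 of the 15 windows and in 35.7% of all. Windows of 1 gene can overlap, and the GC boxes at 1, 14 and 39 of the Bbc3 window lie in another of its windows too. These 10 windows therefore share some sites. The CCAAT box CCAAT was found in 4 of the 15 windows, in Bad, Bbc3 and Bcl2l11, and in 37.4% of all. No window of the 15 held the AP-1 motif TGANTCA (7.81% of all), the cyclic AMP element TGACGTCA (1.79%) or the TATA box TATAAA (13.6%). The window of Bak1 held none of the 6 motifs. A match is a string of letters and does not show that a factor binds there.

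For the 3 family genes with the widest ranges, the genes of closest profile were sought by the root mean square distance between centred log2 values over the 7 arrays. Nearest to Bak1 were Ndufa3 (0.08), a subunit of respiratory complex I, Crip1 (0.09) and Mtch1 (0.10), an outer mitochondrial membrane protein. All 3 were higher on the wider arrays, for Ndufa3 at 8.76 to 9.14 against 7.32 to 7.69 on the narrower ones. Nearest to Pmaip1 were Snora68 (0.08), a small nucleolar RNA, the microRNA gene Mir574 (0.14) and Zfp936 (0.15), all lower on the wider arrays. Zfp936 averaged 3.55 and read 3.11 to 3.27 on the wider arrays, below the limit for dim genes of 3.48. Nearest to Bbc3 were the microRNA gene Mir540 (0.06), Fstl3 (0.07), a follistatin-like binder of activins, and the MHC class I gene H2-Q4 (0.09). The 7 points of each profile share the array sets, and after a further quantile normalization 4 of these 9 genes stayed among the nearest 3.

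The rest of the apoptosis machinery gave 0 calls between the genotypes as well. Only 2 of all 16136 genes tested (0.0124%) were called, so 0 calls is near that background. Among 8 tested genes of the wider BCL2 family 3 had higher and 5 lower means in deficient cells, with a median log2 difference of -0.02. The guardian genes Bcl2l2, which encodes BCL-W (0.27 ± 0.18, log2 difference ± SE), and Bcl2a1a, which encodes A1 (0.17 ± 0.13), had the lowest p there, 0.187 and 0.241 in limma. Without RRas2-deficient replicate 2 the difference of Bcl2l2 was 0.05. Bcl2a1a has near-identical gene copies whose RNA the probe may not tell apart. Bcl2a1a read 5.67, 5.57 and 6.03 in deficient and 5.68, 5.53, 5.67 and 5.49 in WT samples, so 1 deficient array carried the difference.

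Of 18 genes of the apoptosome, caspases and their inhibitors 13 had lower and 5 higher means in deficient cells, with a median of -0.11. Endog, a mitochondrial nuclease (0.10 ± 0.08), and Birc3, which encodes the ubiquitin ligase cIAP2 (0.13 ± 0.11), had the lowest limma p, 0.274 and 0.293. In the death receptor pathway 6 of 10 genes were lower, with a median of -0.03. The adapter gene Fadd read 5.70, 5.48 and 5.09 in deficient and 5.65, 5.68, 5.88 and 5.81 in WT samples. Its log2 difference was -0.33 ± 0.15 (SE), with a limma p of 0.0674 and an adjusted p of 1.00. It was -0.17 without RRas2-deficient replicate 3 and -0.47 without RRas2-deficient replicate 1. The adapter gene Tradd differed by 0.20 ± 0.18 (SE).

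Of 14 tested targets and regulators of p53, without Trp53 itself, 9 were lower in the mean, with a median of -0.08. The apoptosis-enhancing nuclease gene Aen differed by 0.14 ± 0.09 (SE), and Cdkn1a, which encodes the cell cycle inhibitor p21, by -0.26 ± 0.18 (SE). Cdkn1a read 4.29, 5.11 and 4.69 in deficient and 4.99, 4.95, 4.95 and 4.94 in WT samples, so deficient values lay on both sides of WT. Of 23 regulators of the family 15 were lower, with a median of -0.04. Btrc, a ubiquitin ligase subunit (-0.19 ± 0.10), and Akt2, a survival kinase (0.22 ± 0.17), had the lowest limma p, 0.101 and 0.231.

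**Figure D4:**
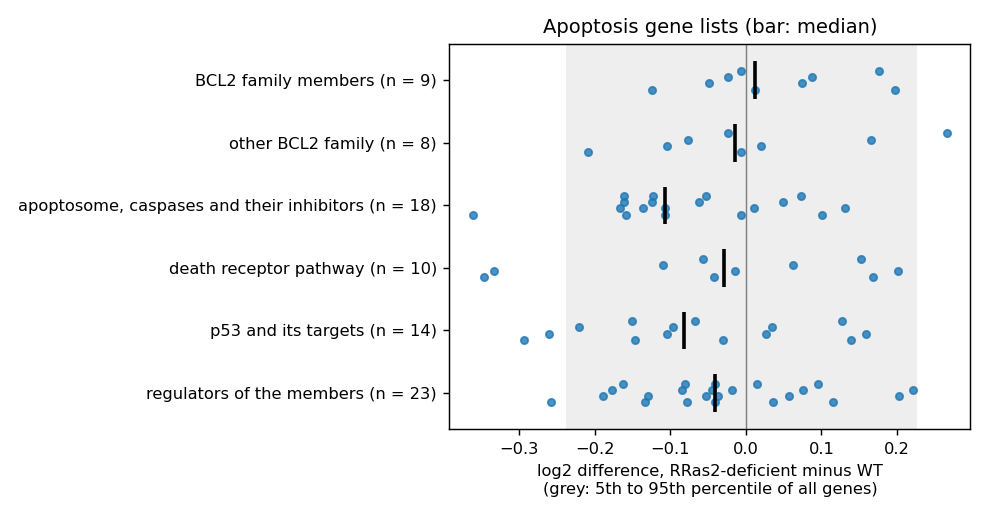
Log2 difference, RRas2-deficient minus WT (horizontal axis), of each tested gene of 6 lists (vertical axis, with the number tested), with the list's median as a bar and the 5th to 95th percentile of all genes (-0.24 to 0.23) in grey. The 9 BCL2 family members all lie within that range, and list medians run from -0.11 to 0.01.

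With the array set as a block, 0 of these 73 pathway genes passed the adjusted threshold, and 9 had an unadjusted limma p under 0.05. Over all genes tested 10.1% had such a p. The 9 were all lower in deficient cells, and 1007 (6.24%) of all genes had such a p with lower values. These 9 genes also read higher on every wider array than on any narrower one, as did 26.9% of all genes. Their mean differences between the sets ran from 0.42 (Casp2) to 2.02 (Ccng1). The 9 were named after their values were seen. The lowest p values belonged to Vdac1, the mitochondrial outer membrane channel (-0.59 ± 0.12, log2 difference ± SE, limma adjusted p = 0.296), and Ywhaz, a 14-3-3 protein of the kind that binds phosphorylated BAD (-0.45 ± 0.09, adjusted p = 0.296). The others were Casp8, the initiator caspase of death receptors (-0.55), Ccng1 (-0.45) and Trp53inp1 (-0.23) of the p53 targets, Casp2 (-0.24), Cycs, which encodes cytochrome c (-0.42), Vdac2, which holds BAK at the mitochondrion (-0.33), and Usp9x, a deubiquitinase that stabilises MCL1 (-0.37). Each of the 9 kept its sign without any 1 array, but they were picked by p on these same arrays, so this adds no support. Without RRas2-deficient replicate 2 only the wider set compares the genotypes. For 4 of the 9 (Cycs, Trp53inp1, Usp9x and Vdac2) leaving out 1 array could bring the unadjusted limma p above 0.05. Of Ywhaz, with 3 probes, and Cycs, with 5, only the brightest probe is described. With each array's interquartile range as a number in the model and no sets, the 9 differences ran from -0.25 for Vdac1 to 0.07 for Ccng1. Those of Ccng1, Cycs (0.01) and Vdac2 (0.0065) turned sign there, and the lowest unadjusted limma p was 0.118 (Casp2). The shifts of the germinal centre and naive B cell markers given beside Bbc3 are from the blocked model too. All 6 plasma cell markers were lower in deficient cells (median -0.29 with the block and -0.22 without it), and 8 of 10 myeloid markers were higher (median 0.13 and 0.09). Of all 16136 genes tested 7919 were higher and 8217 lower with the block. In each of these 2 lists 1 gene had an unadjusted limma p under 0.05 with the block, and 0 had without it. The 10 myeloid markers averaged 4.26 to 4.73 by array, against the limit for dim genes of 3.48. The part of these markers in the differences was not tested.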

How the data were processed

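Total RNA of each sample was read on 1 whole-transcript array. The authors deposited log2 intensities, 1 for each transcript cluster. RMA and oligo are named, without versions, per the submitters' processing notes. No source used here gives the genome build. Median polish, a step of RMA, can give several arrays the same value where a gene has few probes. Each array held 25349 values with medians of 4.34 to 4.54. The brightest probe stood for a gene. Genes whose mean lay below the 25th percentile (3.48) were dropped, which kept 16136 of 21515. They were fitted with limma 3.58.1 (R 4.3.3; lmFit, then eBayes) as RRas2-deficient minus WT, without covariates and two-sided. P-values were adjusted by Benjamini-Hochberg at a threshold of 0.05, and intervals and SE are limma's moderated ones. Every p printed in the text comes from limma. Where stated, the model also held the array set or the interquartile range, or left out 1 array. As the animals are not named in the labels, the spread may be technical in part.

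The members, lists and array sets (divided at 2.59, the widest gap between interquartile ranges) were chosen with earlier results of these data known. Named beside the 10 members and Rras2 were the 2 genes of lowest p of each of 5 pathway lists (16, 20, 12, 16 and 27 genes) and the 3 nearest profiles of 3 members. Lists of NK cell, erythroid and platelet markers gave 0 calls each, as did those of plasma cell and myeloid markers, whose shifts stand in the results. The fits were tested on simulated data. Samples of the same number gave correlations of deviations from the group means of -0.59, 0.78 and 0.66. Both replicates 2 lay in the narrower set and both replicates 3 in the wider, while replicates 1 lay in different sets. These values therefore cannot tell whether the numbers pair the samples. The closing section gives the alternatives.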

Additional observations from a re-analysis of the deposited data

Results flagged for a closer look

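In 3 of 29 named genes 1 of the 4 WT arrays lay far from the others, where chance gives about 1 in 20 for independent normal values. That share is a rough guide only, since 48.3% of the genes tested repeat a value on more than 1 array. The other WT values lie close together in all 3 genes, and some of the 29 were named for their p. Bcl2 read 5.998 in WT replicate 3 and 6.69 to 6.72 on the other WT arrays. Bcl2l1 read 5.01 in WT replicate 1 and 5.34 to 5.36 on the others. Cdkn1a read 4.99 in WT replicate 1 and 4.94 to 4.95 on the others, a gap of little size, since those 3 arrays nearly coincide.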

How the results depend on the processing

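Over 21 alternative settings 0 of the 9 family genes had an adjusted p under 0.05, and leaving out each of 7 arrays in the model with the array set as a block, added after seeing the data, also gave 0. Of 189 values of these genes 39 turned sign, all in genes that were not called. The model with sets gave a log2 difference of -0.16 for Bak1, 0.13 for Pmaip1 and -0.039 for Bcl2l11. With array weights these 3 were -0.175, 0.14 and -0.15, and Bid was 0.032. On the wider set alone Bak1 was -0.22, Pmaip1 0.062, Bcl2l11 -0.0996 and Bcl2l1 -0.0061. On the narrower set alone, with 1 deficient array assumed to vary like WT, Bak1 was -0.061, Pmaip1 0.24, Bcl2 -0.015, Bcl2a1a -0.027 and Cdkn1a 0.15. Centred arrays gave -0.0072 for Bcl2l11, and Bid was 0.012 after further quantile normalization and 0.04996 with the interquartile range in the model. With the replicate number as a block, which sets WT replicate 4 aside, Bid was 0.053 and Bad 0.0026, and 0 genes were called.

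Leaving out 1 array gave -0.24 to 0.55 for Bak1, -0.45 to 0.22 for Pmaip1, -0.20 to 0.23 for Bid, -0.11 to 0.11 for Bcl2l11, -0.26 to 0.086 for Mcl1, -0.047 to 0.40 for Bbc3 (lowest without RRas2-deficient replicate 2), -9.40e-05 to 0.24 for Bcl2, -0.0087 to 0.11 for Bcl2l1 and -0.058 to 0.012 for Bad. Under the set block these ranges were -0.24 to -0.064, 0.022 to 0.22, -0.20 to -0.039, -0.11 to 0.025, -0.27 to -0.031, 0.28 to 0.40, -0.0035 to 0.36, -0.0087 to 0.11 and -0.058 to -0.020 in the same order. The count of called genes, 2, was 5 with array weights, 1 over all probes or with centred arrays, 0 with a plain t-test or within either set, 0 to 2 without 1 array, and 1 to 2 without 1 array under the set block. Quantile normalization kept 4 of the 9 nearest profiles. The cause of these shifts was not tested.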
